A study of Rattus norvegicus with 6 samples.

Results

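Insulin receptor, IRS and AKT signalling was examined in pancreatic islets of ageing rats through 9 genes: *Insr*, *Irs1*, *Irs2*, *Pik3r1*, *Pik3ca*, *Pdpk1*, *Akt1*, *Akt2* and *Foxo1*. A member was measured where the RefSeq accession of an array probe matched its symbol. Of the 9 genes, 6 had a matched probe, each with 1 probe and 1 spot, and 4 passed the filter on dim probes, among 11190 genes tested in all. No accession matched *Irs2*, *Pik3ca* or *Foxo1*, and these genes were not analysed here. The samples were islets, the hormone-secreting cell clusters of the pancreas, from 3 male Wistar rats aged 3 months and 3 male Wistar rats aged 12 months. The islets were isolated with collagenase, and the labels name no treatment or genetic change. Total RNA of each rat was hybridised to 1 Cy3-labelled array, and the design asks which transcripts differ with age.

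Insulin bound to its receptor starts a chain of phosphorylation. The receptor kinase, encoded by *Insr*, marks the IRS docking proteins, which recruit the PI3-kinase made of a regulatory subunit (*Pik3r1*) and a catalytic subunit (*Pik3ca*). The lipid that this kinase makes brings PDK1 (*Pdpk1*) and the AKT kinases together at the membrane, and active AKT keeps FOXO transcription factors such as FOXO1 out of the nucleus. In beta cells the pathway also answers to the insulin that the cells release and is known for its part in their growth, proliferation and survival.

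The RNA of every array held islet transcripts and transcripts of the exocrine pancreas. *Ins1*, *Ins2*, *Iapp*, *Gcg*, *Sst* and *Ppy*, which encode islet hormones, were well above background on 6 of 6 arrays and at or above percentile 99.7 of all probes on each. Of the acinar cell markers, genes of digestive enzymes, 6 of 6 with a probe were also above background on every array. *Pnlip* had log2 signals between 18.31 and 18.52. *Ctrb1* varied between 14.02 and 17.91, with its lowest signals on 3-month replicate 3 and 12-month replicate 2. The ages were read in 2 scans, neither of which held both, and for every value below a scan effect and an age effect cannot be told apart. Between 73.1% and 77.5% of probes were well above background on the 3-month arrays and between 59.5% and 64.2% on the 12-month arrays. Negative control spots had a median of 29.5 to 31 scanner units at 3 months and of 89.5 to 91 at 12 months. Arrays have no read depth, so the number of arrays limits the precision.

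No member was shown to rise or fall with age. Of the 4 tested members, 0 passed an adjusted p of 0.05 (limma, Benjamini-Hochberg over all tested probes), where 8.37% of all tested probes and 7.86% of the tested genes passed. None of the 4 had an unadjusted p under 0.05, and 0 met the study's threshold (more than 2-fold, unadjusted p under 0.05), which 19.4% of the tested genes met. The 12-month and 3-month arrays overlapped for each of the 4, while 39.3% of the tested genes had no overlap. The differences of *Irs1*, *Pdpk1* and *Akt1* were above 0 and that of *Akt2* was below 0, with a median of 0.24 on the log2 scale. Over all tested genes the median difference was -0.13. All levels below are quantile-normalized log2 signals, and every difference is the 12-month mean minus the 3-month mean on that scale.

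**Figure D1:**
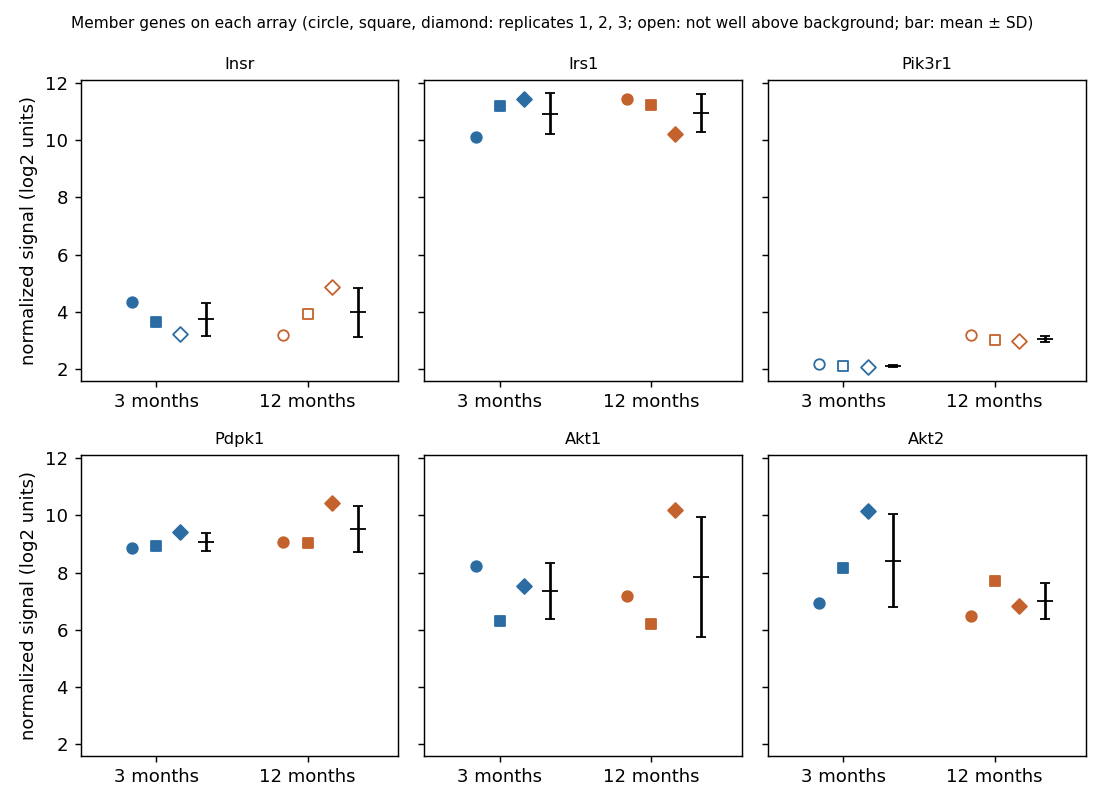
Normalized signal (log2 units, vertical axis) of the 6 members with a matched probe on the 3-month (blue) and 12-month (orange) arrays. Circles, squares and diamonds are replicates 1, 2 and 3, open symbols are signals not well above background, and bars give the mean ± SD of 3 arrays. The ages overlap for *Insr*, *Irs1*, *Pdpk1*, *Akt1* and *Akt2*, and the *Pik3r1* signals are below the background mark on 6 of 6 arrays.

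The receptor gene itself lay at the edge of detection. *Insr* had a log2 signal of 4.34, 3.65 and 3.22 at 3 months and of 3.17, 3.92 and 4.88 at 12 months. It was well above background only on replicates 1 and 2 of the 3-month islets, so it was not tested and no fold is given. The brightest of its 6 signals, on 12-month replicate 3, was below the lowest signal well above background on that array, 5.02. The ages overlapped, and the difference of the measured means was 0.25 (exact permutation test, two-sided p = 0.7).

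FOXO factors bind the sequence GTAAACAA, and the promoters of the pathway were searched for it on both strands, in the 250 bases before and 50 bases after each gene's start (RefSeq, GRCr8). The motif stood in 369 of 33469 promoters (1.1%). Of 80 member and pathway genes with a promoter in the table, 5 held it: *Insr*, *Akt1s1*, *Pfkfb2*, *Phlpp1* and *Trim63*. *Insr* was the only 1 of 8 members with a promoter in the table to hold it. The windows of *Insr* and of *Akt1s1* and *Pfkfb2*, which are described by their array values further on, are shown 5′ to 3′ on the gene's strand, with the motif or its reverse complement in capitals.

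Insr, chr12:6128867-6128934, minus strand, motif on the opposite strand: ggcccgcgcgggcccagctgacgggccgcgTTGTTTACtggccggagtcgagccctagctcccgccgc

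Akt1s1, chr1:104469691-104469758, plus strand: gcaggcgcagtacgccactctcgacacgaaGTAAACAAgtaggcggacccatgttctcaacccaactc

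Pfkfb2, chr13:44727125-44727192, minus strand: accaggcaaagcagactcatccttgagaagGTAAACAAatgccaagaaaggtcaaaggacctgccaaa

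The motif began 101 bases before the start of *Insr*, 115 before that of *Akt1s1* and 191 before that of *Pfkfb2*. A match describes the letters of the window and is neither a bound site nor a cause. Of the 5 genes with the motif, *Pfkfb2* passed the test, *Akt1s1* passed but was near background at 3 months, *Phlpp1* differed by -0.33 with a 95% interval from -1.25 to 0.58, and *Insr* and *Trim63* were too dim to be tested.

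The related receptors were measured on every array. *Igf1r*, the receptor for insulin-like growth factor 1, had a log2 signal of 12.37, 11.94 and 12.12 at 3 months and of 11.85, 12.10 and 12.16 at 12 months. Its difference was -0.11 (limma SE 0.24, adjusted p = 0.775), within the spread of the arrays of 1 age. *Insrr*, which encodes the insulin receptor-related receptor, differed by -0.10, with a 95% interval from -0.78 to 0.59.

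Of the docking proteins, *Irs1* was measured on every array. Its log2 signal was 10.13, 11.21 and 11.46 at 3 months and 11.46, 11.24 and 10.21 at 12 months. The lowest array of each age stood about 1 log2 unit under the other two, and the ages covered the same range. *Irs1* differed by 0.04 (limma SE 0.48, adjusted p = 0.963), with a 95% interval from -1.10 to 1.17 that leaves room for a change of about 2-fold in either direction (exact permutation test, two-sided p = 0.8). The sign of so small a difference turned with the scaling: it was -0.037 when each array was shifted to a common 75th percentile. *Irs3*, another docking protein of the family, differed by 0.0039 with a 95% interval from -0.67 to 0.68, and no accession matched *Irs4*.

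The regulatory subunit of PI3-kinase, *Pik3r1*, was not well above background on any of the 6 arrays. Its log2 signals were 2.16, 2.09 and 2.09 at 3 months and 3.18, 3.01 and 2.97 at 12 months, so the ages did not overlap. The lowest signal well above background on the same arrays was 2.89 to 3.17 at 3 months and 4.26 to 5.13 at 12 months, and the negative control spots were brighter at 12 months, as given above. The part of that background difference in the *Pik3r1* values was not tested. No fold is given for *Pik3r1*, since both ages were below background. When dim probes were kept in the fit, *Pik3r1* was the 1 member called, with a difference of 0.94 (limma SE 0.16, adjusted p = 0.0295). The exact permutation test gave p = 0.1, the smallest that 20 arrangements of 3 arrays against 3 allow.

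The other subunits of PI3-kinase enzymes gave no call either. Of 9 further subunit genes, 7 had a probe and 5 were tested, and none passed the adjusted threshold. All 5 differences were below 0, with a median of -0.63. Of the 5, *Pik3c2a* was above background on 3 of 3 arrays at 3 months and on 0 of 3 at 12 months. It met the filter through the age at which it is higher, so its sign is no support for a fall in the group. *Pik3c2b* and *Pik3cd* were each above background on 2 of 3 12-month arrays. *Pik3r2*, the regulatory paralogue of *Pik3r1*, had a log2 signal of 11.85, 12.06 and 12.20 at 3 months and of 11.65, 11.82 and 11.63 at 12 months, a difference of -0.34 (limma SE 0.23, adjusted p = 0.329). Its 12-month arrays all lay under its 3-month arrays by a margin that did not pass the test. *Pik3c3*, the class III kinase of endosomes and autophagy, had the smallest p of the group, with a difference of -0.63 (adjusted p = 0.190). *Pik3cb*, a catalytic paralogue of *Pik3ca*, was above background on no 3-month array and on 1 of 3 12-month arrays. *Pik3r3* was above background on 2 of 3 3-month arrays and on no 12-month array, so neither was tested.

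PDK1, the kinase that phosphorylates AKT in its activation loop, was measured on every array. *Pdpk1* had a log2 signal of 8.86, 8.94 and 9.42 at 3 months and of 9.08, 9.03 and 10.44 at 12 months. On 5 of the 6 arrays it lay within a narrow band, and 12-month replicate 3 stood above that band. The difference was 0.45 (limma SE 0.43, adjusted p = 0.488), with a 95% interval from -0.57 to 1.47 (exact permutation test, two-sided p = 0.5). Without 12-month replicate 3 it was -0.011.

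*Akt1* and *Akt2* varied more between arrays of the same age than most genes. *Akt1*, the broadly expressed form, had a log2 signal of 8.23, 6.30 and 7.54 at 3 months and of 7.17, 6.19 and 10.19 at 12 months. The 12-month arrays held both the lowest and the highest value of *Akt1*, and the highest was again on replicate 3. The difference was 0.49 (limma SE 1.04, adjusted p = 0.761), with a 95% interval from -1.99 to 2.97 (exact permutation test, two-sided p = 0.9). Without 12-month replicate 3 the *Akt1* difference was -0.68.

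*Akt2*, the form tied to glucose metabolism in insulin-responsive tissues, had a log2 signal of 6.94, 8.15 and 10.16 at 3 months and of 6.48, 7.71 and 6.83 at 12 months. Here 3-month replicate 3 was the array that stood apart, and the other 2 arrays of that age overlapped with the 12-month arrays. The difference was -1.40, or 0.378 times the 3-month level, with a 95% interval from 0.101 to 1.41 times (limma SE 0.80, adjusted p = 0.258). The exact permutation test gave a two-sided p of 0.2. Without 3-month replicate 3 the difference was -0.53 (adjusted p = 0.546). Without 3-month replicate 1 it was -2.14, which met the threshold of the study with an unadjusted p of 0.0229 and did not pass the adjusted one (adjusted p = 0.156).

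Whether *Akt2* and *Akt1* changed differently with age was tested directly. The log2 difference *Akt2* minus *Akt1* was -1.30, 1.85 and 2.62 on the 3-month arrays and -0.68, 1.52 and -3.36 on the 12-month arrays. Only the change of this quantity with age carries meaning, since the signals of different probes are not on one scale. It changed by -1.90 (SE 1.85), with a 95% interval from -7.03 to 3.24 (exact permutation test, two-sided p = 0.4). The change was smaller than the spread between arrays of 1 age. It was the 1 pair compared, since the pairings of *Irs2* with *Irs1*, *Pik3r1* with *Pik3ca* and *Insr* with *Foxo1* each held a gene without a matched probe.

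The spread within an age set how large a change could be seen. The SD between arrays of 1 age, pooled over both ages, was 1.63 log2 units for *Akt1*, at percentile 98.8 of the 11190 tested genes. It was 1.23 for *Akt2*, at percentile 96.2. The SD was 0.69 for *Irs1* and 0.60 for *Pdpk1*, at percentiles 78.9 and 72.3, against 0.41 for the median gene. The mean signal of *Irs1* stood at percentile 66.6 of the tested genes and those of *Pdpk1*, *Akt1* and *Akt2* at percentiles 48.3, 32.6 and 33.6. All 4 tested members thus varied more within an age than the median gene did.

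**Figure D2:**
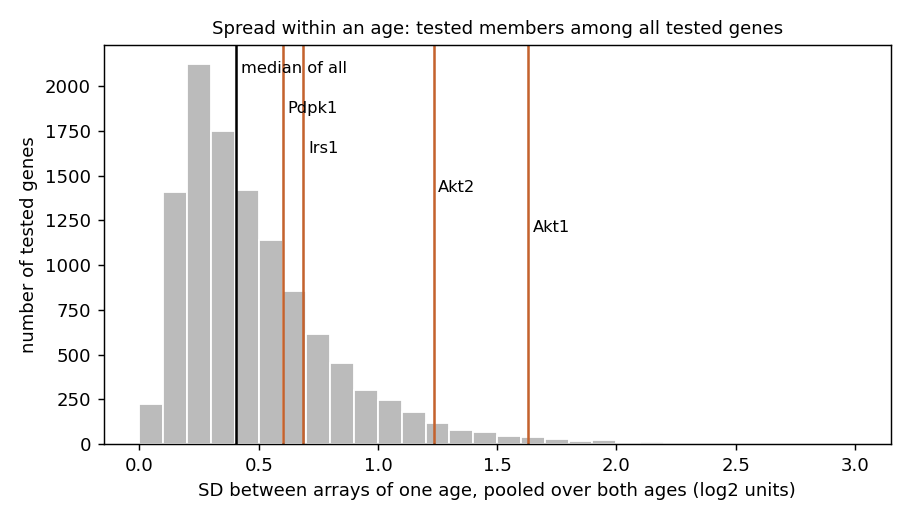
Number of tested genes (vertical axis) by the SD between arrays of 1 age, pooled over both ages, in log2 units (horizontal axis). Lines mark the median gene at 0.41 and the 4 tested members, of which *Akt1* at 1.63 and *Akt2* at 1.23 lie in the upper tail.

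**Figure D3:**
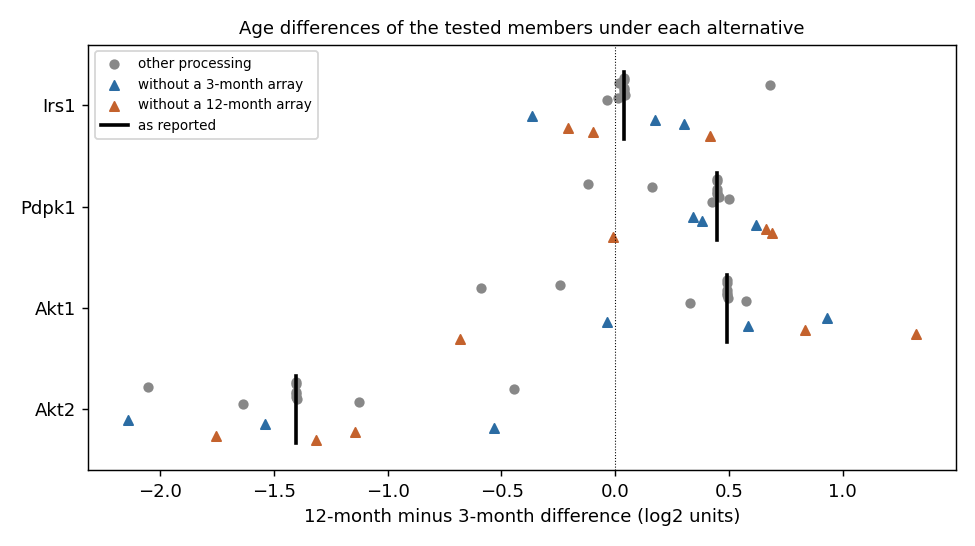
Difference between 12-month and 3-month islets in log2 units (horizontal axis) for the 4 tested members under each alternative. The black bar is the value reported, grey points are other processing choices, blue and orange triangles are fits without a 3-month or a 12-month array, and the dotted line is 0. Values of *Irs1*, *Pdpk1* and *Akt1* fall on both sides of 0, and those of *Akt2* lie between -2.14 and -0.45.

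The array profiles of the members were compared with those of the other genes above background on all 6 arrays. *Insr* was most like *Zfp398*, *Eya3* and *Galnt7*, with Pearson's r of 0.95, 0.95 and 0.94 over 6 arrays among 9078 genes, though the *Insr* signals were near background. Likeness for the other members was added after their values were seen. *Irs1* was most like *Tnfrsf25* (r = 0.98), *Pdpk1* most like *Ppp1r12a* (r = 0.99), *Akt1* most like *Golph3l* (r = 0.95) and *Akt2* most like *Nrsn2* (r = 1.00). With 6 arrays, and with 1 array far from the rest for *Pdpk1*, *Akt1* and *Akt2*, these values describe the arrays and carry no test.

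Around the members, 84 further genes of the pathway were read from a list by role. Of these, 71 had a probe, 65 were tested and 10 passed an adjusted p of 0.05, 7 of them higher and 3 lower at 12 months. Over all tested genes 4.88% passed as higher and 2.98% as lower. Differences were above 0 for 26 of the 65 and below 0 for 39, with a median of -0.12 against -0.13 over all tested genes. The ages did not overlap for 29 of the 65, where 39.3% of all tested genes had no overlap. The study's own pathway table, drawn up on these arrays, holds 6 of the 84 genes (*Gab1*, *Foxo3*, *Cdkn1b*, *Ccng2*, *Sod2* and *Pfkfb2*), all 6 passed, and they are not independent evidence of a direction. Without them 1 of 59 genes, *Akt1s1*, was higher and 3 were lower. *Akt1s1* entered the test only through its 12-month arrays. Among the 53 pathway genes above background on all 6 arrays, 6 were higher and 4 lower when only such probes were tested. Under that filter 11.9% of all 9131 tested genes passed.

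**Figure D4:**
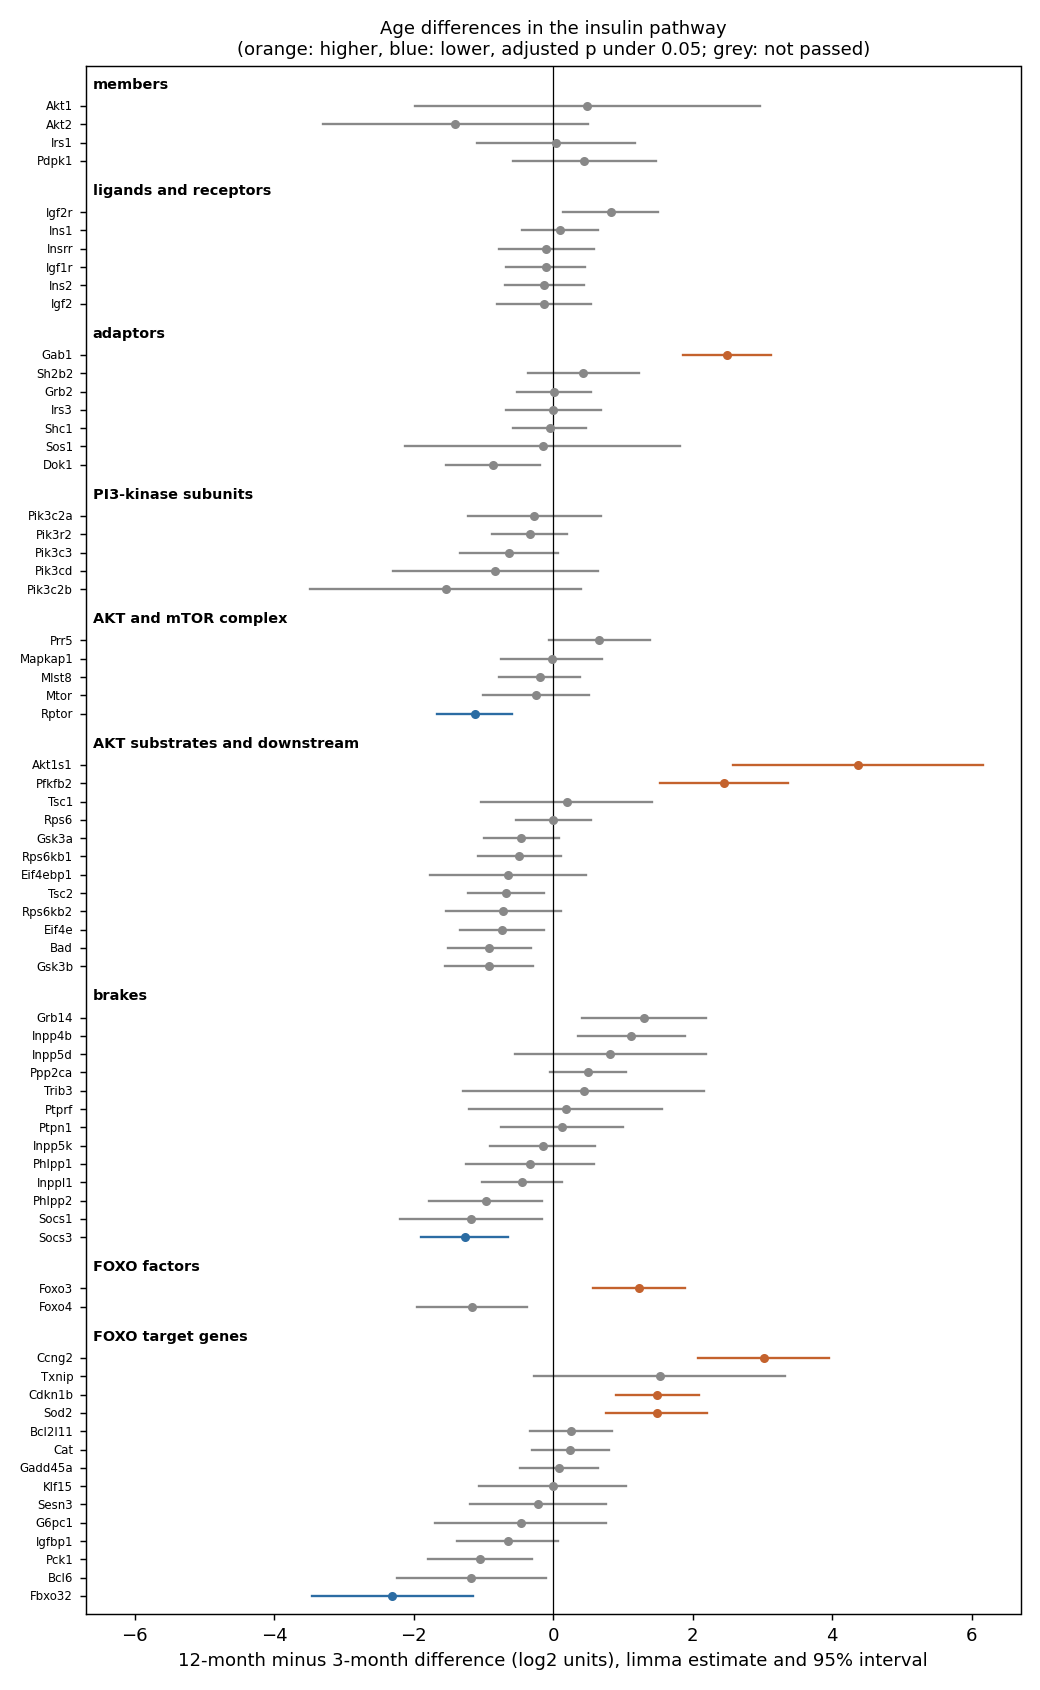
Difference between 12-month and 3-month islets in log2 units (horizontal axis) for the tested members and the pathway genes reported here, grouped by role, with points for the limma estimate and lines for its 95% interval. Orange marks the 7 genes higher and blue the 3 genes lower at an adjusted p under 0.05, and each of the 4 members is grey with an interval that spans 0.

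Among ligands and receptors 0 of 6 tested genes passed. Both insulin genes were near the top of the scale at either age, and *Ins1* differed by 0.10 and *Ins2* by -0.12. The smallest p belonged to *Igf2r*, which clears IGF2 from the cell surface. *Igf2r* had a log2 signal of 11.62, 12.39 and 11.70 at 3 months and of 12.58, 12.82 and 12.79 at 12 months, a difference of 0.83 that did not pass (limma SE 0.28, adjusted p = 0.106).

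Among adaptors 1 of 7 tested genes passed. *Gab1*, a docking protein that binds PI3-kinase below receptor kinases, had a log2 signal of 8.12, 8.63 and 8.0 at 3 months and of 10.63, 10.93 and 10.65 at 12 months. The arrays of the 2 ages stood about 2 log2 units apart. *Gab1* rose 5.61-fold, with a 95% interval from 3.62 to 8.69 (limma, log2 difference 2.49, SE 0.27, adjusted p = 0.00648). It was called in each of the 6 fits that left out 1 array.

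Among AKT and mTOR complex genes 1 of 5 tested genes passed. *Rptor*, whose product raptor is the scaffold of mTOR complex 1, had a log2 signal of 13.44, 13.25 and 13.37 at 3 months and of 12.12, 12.44 and 12.12 at 12 months. It fell by 1.12 on the log2 scale (limma SE 0.23, adjusted p = 0.0341), to 0.459 times the 3-month level. *Mtor* itself differed by -0.24, with a 95% interval from -1.0 to 0.52.

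Among AKT substrates and genes downstream of them 2 of 12 tested genes passed, both higher, and both with limits. Of the 12 differences, 3 were above 0 and 9 below 0, with a median of -0.56. *Akt1s1* encodes PRAS40, an AKT substrate that holds back mTOR complex 1. Its log2 signal was 3.39, 4.63 and 2.31 at 3 months and 8.36, 6.5 and 8.59 at 12 months, a difference of 4.37 (limma SE 0.75, adjusted p = 0.0229). It was above background on 1 of 3 arrays at 3 months, so it met the filter through the age at which it is high, and its call is no support for a rise in the group. With normexp the *Akt1s1* difference was 1.84. *Pfkfb2*, an AKT substrate whose product makes fructose 2,6-bisphosphate, the activator of glycolysis, had a log2 signal of 8.56, 9.90 and 8.89 at 3 months and of 11.35, 11.80 and 11.56 at 12 months. *Pfkfb2* rose 5.48-fold, with a 95% interval from 2.90 to 10.3 (limma, log2 difference 2.45, SE 0.39, adjusted p = 0.0184). *Pfkfb2* is also in the study's table. Both genes hold the FOXO motif in the promoter windows shown with that of *Insr*. The other 2 probes of *Pfkfb2*, both dimmer, differed by 0.89 (adjusted p = 0.119) and 0.43 (adjusted p = 0.339).

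Among the genes that dampen insulin signalling 1 of 14 tested genes passed. Of the 14 differences, 8 were above 0 and 6 below 0, with a median of 0.15. *Socs3*, a suppressor of cytokine signalling that also binds the insulin receptor, had a log2 signal of 8.43, 8.02 and 7.72 at 3 months and of 6.84, 6.87 and 6.66 at 12 months. *Socs3* fell by 1.27 on the log2 scale (limma SE 0.26, adjusted p = 0.0368).

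The FOXO factors carry the output of the pathway to the genome, and 2 of them were tested in the absence of *Foxo1*. *Foxo3*, chosen by the study as noted, had a log2 signal of 4.90, 5.11 and 4.52 at 3 months and of 6.36, 5.81 and 6.04 at 12 months. *Foxo3* rose by 1.23 (limma SE 0.28, adjusted p = 0.0440), and this call ended with the scaling: the difference was 0.76 under the 75th percentile shift (adjusted p = 0.204) and 0.45 with normexp (adjusted p = 0.101). *Foxo4* had a difference of -1.16 that did not pass (limma SE 0.33, adjusted p = 0.0731).

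Of 14 tested FOXO target genes, 3 rose, 1 fell and 10 did not pass, with a median difference of 0.04. The 3 that rose are all in the study's table. *Ccng2*, encoding cyclin G2, an atypical cyclin linked to cell cycle arrest, had a log2 signal of 4.94, 5.95 and 5.22 at 3 months and of 8.45, 7.80 and 8.91 at 12 months. *Ccng2* rose by 3.02 (limma SE 0.40, adjusted p = 0.0114), or by 1.85 with normexp (adjusted p = 0.0110). *Cdkn1b*, encoding the cyclin-dependent kinase inhibitor p27, rose by 1.49 (adjusted p = 0.0217) and *Sod2*, the mitochondrial superoxide dismutase, by 1.48 (adjusted p = 0.0355).

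The 1 FOXO target gene that fell was *Fbxo32*, which encodes the ubiquitin ligase subunit atrogin-1. *Fbxo32* had a log2 signal of 11.03, 9.77 and 9.24 at 3 months and of 7.49, 7.5 and 8.13 at 12 months, and fell by 2.31 on the log2 scale (limma SE 0.49, adjusted p = 0.0377). FOXO target genes thus passed in both directions.

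**Figure D5:**
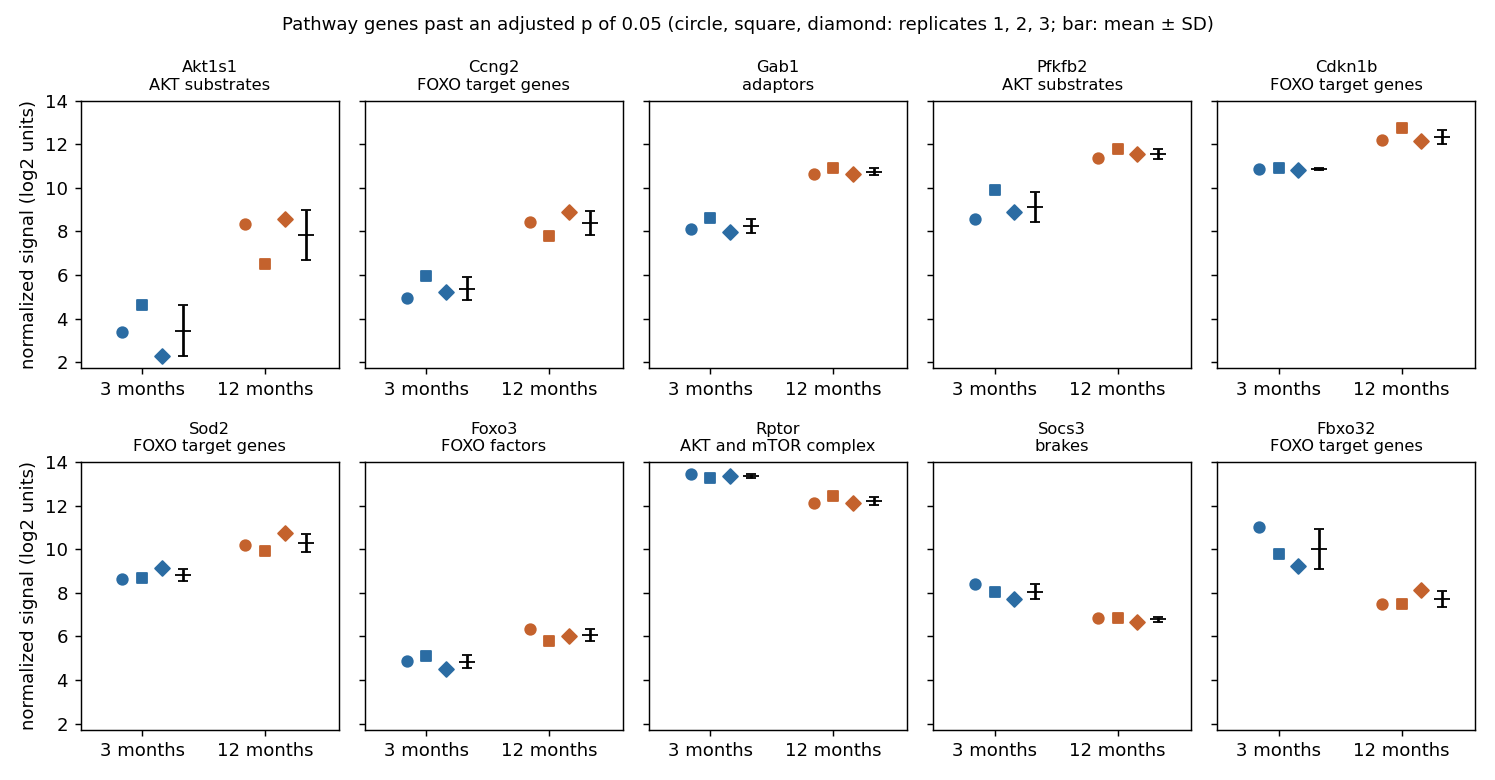
Normalized signal (log2 units, vertical axis) of the 10 pathway genes past an adjusted p of 0.05 on the 3-month (blue) and 12-month (orange) arrays, with symbols for replicates 1, 2 and 3 and bars for the mean ± SD of 3 arrays. The ages do not overlap for any of the 10, and *Akt1s1* is above background on 1 of 3 arrays at 3 months.

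The count of 10 depended on single arrays and on pairing, as did the share of all tested genes that passed, 7.86% with all 6 arrays. The count was 0 with a block on the replicate numbers 1 and 2, where 0 of all tested genes passed. It was 2, 5 and 2 without 3-month replicate 1, 2 or 3, each in turn, where 1.55%, 5.43% and 2.29% of all tested genes passed. It was 1, 9 and 2 without 12-month replicate 1, 2 or 3, each in turn, where 1.08%, 10.2% and 1.35% passed. Of the 6 fits that left out 1 array, *Ccng2* passed in 5, *Akt1s1*, *Pfkfb2* and *Cdkn1b* in 2, *Sod2*, *Foxo3*, *Rptor* and *Socs3* in 1 and *Fbxo32* in none, with the sign kept in each.

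Markers of other cells in the samples moved with age as well. In whole islets, fewer cells of a type and less RNA per cell cannot be told apart. Of the nerve and Schwann cell markers 2 of 5 tested were lower and none higher, and their summed linear signal was 4417 to 7846 at 3 months and 1709 to 2635 at 12 months. Of the fat cell markers 1 of 3 tested was higher, and the summed signal was 380 to 648 at 3 months and 1723 to 3891 at 12 months. Of the stellate and mesenchymal markers 1 of 4 tested was higher, with a summed signal of 22977 to 33167 at 3 months and 32682 to 85968 at 12 months. Beta cell markers were higher for 2 of 6 (827396 to 968266 at 3 months and 1050900 to 1188900 at 12 months). Other endocrine markers were higher for 1 of 6 (715558 to 787209 at 3 months and 898981 to 1002800 at 12 months). No call was made for 0 of 6 acinar (summed signal 955184 to 1555530 at 3 months and 959965 to 1773500 at 12 months), 0 of 3 duct, 0 of 4 endothelial and 0 of 5 immune markers. The endothelial sum was still lower, 48329 to 62269 at 3 months and 27185 to 46367 at 12 months. Of the 4 endothelial differences 3 were below 0 and 1 above 0. The part of these differences in the values of the insulin pathway was not tested.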

How the data were processed

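RNA of islets from 3 rats of each age was profiled on 1-colour arrays. Per the file headers, the authors quantified spot intensity with Agilent Feature Extraction 11.0.1.1; the values are background-subtracted and not normalized between arrays. The authors also deposited log2 values of 12145 probes, which follow the values computed here with r of at least 0.9996 on each array and served as an alternative.

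Background-subtracted intensities were log2-transformed, averaged over a probe's spots without outlier marks and quantile normalized over 24684 probes. Of these, 17944 were well above background on at least 3 of 6 arrays and 17941 were tested with limma 3.58.1 in R 4.3.3 (lmFit, eBayes, two-sided), with Benjamini-Hochberg adjustment. No kept probe was saturated. Exact permutation tests used the 6 arrays. The limma step was checked on simulated data.

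Accessions were matched without versions to RefSeq names of GRCr8 (14274 of 15321 mRNA probes). The array design uses another build, so only promoter windows carry coordinates. A gene was read from its probe with the highest mean. The members and lists were chosen with earlier results of these data known. Named were all members, per role the 2 largest differences past the adjusted threshold or else the smallest p, and the paralogues of members. *Cdkn1b*, *Sod2*, *Insrr*, *Irs3*, *Foxo4*, *Mtor*, *Ins1*, *Ins2*, *Phlpp1*, *Trim63*, *Pik3c2a*, *Pik3c2b* and *Pik3cd* were added after their values were seen. A few list genes enter the counts but are not named here. Alternatives were another scaling, normexp with an offset of 50 on median signals, the authors' values, 2 other filters, an intensity trend, a replicate block, 4 arrays whose names share an ending, the methods' t-test, probe means and each array left out.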

Additional observations from a re-analysis of the deposited data

How the results depend on the processing

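The count of members past the adjusted threshold was 0 under each of the 16 alternatives except the one with dim probes kept, where it was 1 (*Pik3r1*, below background on every array). The count at the threshold of the study was 0 to 1 when 1 array was left out, the 1 being *Akt2* without 3-month replicate 1. With 1 array left out the differences ran from -0.36 to 0.42 for *Irs1*, from -0.011 to 0.69 for *Pdpk1*, from -0.68 to 1.32 for *Akt1* and from -2.14 to -0.53 for *Akt2*, and the *Akt2* minus *Akt1* change from -3.08 to -0.64. The sign turned for *Irs1* under the 75th percentile shift (-0.037), which moves the median of all tested genes from -0.13 to -0.34. On the 4 arrays whose names share an ending, all but 3-month replicate 1 and 12-month replicate 3, it turned for *Pdpk1* (-0.12) and *Akt1* (-0.24). On the same 4 arrays *Akt2* kept its sign and differed by -2.06 (limma, adjusted p = 0.297). *Igf1r* ran from -0.21 to 0.0054 with 1 array left out, above 0 without 3-month replicate 1. The 10 pathway calls became 0 on those 4 arrays, 2 by the methods' t-test after Benjamini-Hochberg adjustment and 1 to 9 with 1 array left out, 8 to 12 under the other alternatives except the block. Over all tested genes the 4 arrays and the block gave 0 calls each.

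With a replicate block on numbers 1 and 2, the 10 pathway calls became 0, *Akt1* was -0.59 and the *Akt2* minus *Akt1* change 0.14. Arrays with the same number did not deviate together (r = -0.01 and -0.31) and the labels state no pairing. The legends of the study's gene lists name a paired test without saying which arrays were paired. The cause of these shifts was not tested, and precision is limited by 3 arrays per age and, for *Insr* and *Pik3r1*, by signals at background.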
